A study of Rattus norvegicus with 12 samples.

Results

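Tissue around a plain GelMA implant was compared between 4 and 2 weeks in rats, from 3 RNA sequencing libraries at each time. GelMA is gelatin methacryloyl, a gelatin-based hydrogel. The members were the 11688 of 21797 genes with at least 1 FPKM (fragment counts scaled to transcript length and sequencing depth) in at least 3 of these 6 libraries. The groups are called GelMA 2W and GelMA 4W, and the label of the tissue is subcutaneous tissue or muscle. A second pair of groups, MFN+GelMA 2W and 4W, carried GelMA together with a component that the labels write only as MFN, with 3 libraries each. All 12 libraries therefore came from animals with GelMA, and no library of unimplanted tissue was analysed here. The sources used here give no age, sex or strain. The labels do not say that the replicates were separate animals, so the p-values measure the spread between these libraries, which may be technical.

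An implanted material is met by a foreign body response, in which monocytes and macrophages gather at the surface and fibroblasts lay down matrix. Macrophages sense nucleic acids and other cues and can make type I interferon, which turns on a large set of antiviral genes. As such a response settles, proliferation and inflammatory gene expression usually decline.

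Of the tested genes 69 (0.59%) rose and 223 (1.91%) fell between 2 and 4 weeks in limma's test at a Benjamini-Hochberg adjusted p under 0.05, which is 292 genes (2.5%) in either direction. The genes that fell held interferon-stimulated and cell cycle genes and a few macrophage, complement and lysosome genes. The genes that rose held the Wnt inhibitor gene Apcdd1, the angiopoietin gene Angpt4 and the chemokine gene Ccl24. Over all tested genes the median log2 fold change was -0.017. The 2 groups did not overlap for 1206 genes (10.3%) in the higher and 1676 genes (14.3%) in the lower direction. At an unadjusted p under 0.05 there were 2175 genes (18.6%). Fold changes here are on the log2(FPKM + 1) scale, which understates the change of low genes.

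These calls used the spread of all 12 libraries. With only the 6 GelMA libraries in the fit, 1 gene rose and 3 fell, and the exact smallest p that 3 against 3 can give by permutation is 0.1. The counts were 1 and 15 without GelMA 4W replicate 1, and they were 5 and 24 when GelMA 2W replicate 1 was left out and 13 and 79 when GelMA 2W replicate 2 was. Of the 68 genes with values given here that passed the threshold, 8 passed in every fit that left out 1 GelMA library. They were Oas3, Oasl, Siglec1, Lgals3bp, C3ar1, Clec4a2, Hmox1 and Sfrp2. Of these, Oas3 met the FPKM filter only through its 2-week libraries. Another 7 passed in none of those fits (Ccl24, Cidea, Il1r2, Myo7b, Ndufs7, Per1 and Nr1d1). The number of the 68 that stayed past the threshold was 16, 26 and 52 when GelMA 2W replicate 1, 2 or 3 was left out and 8, 51 and 44 when it was GelMA 4W replicate 1, 2 or 3. All 292 genes kept their direction in every fit that tested them, but they were called in these same libraries, so this is not separate support.

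**Figure D1:**
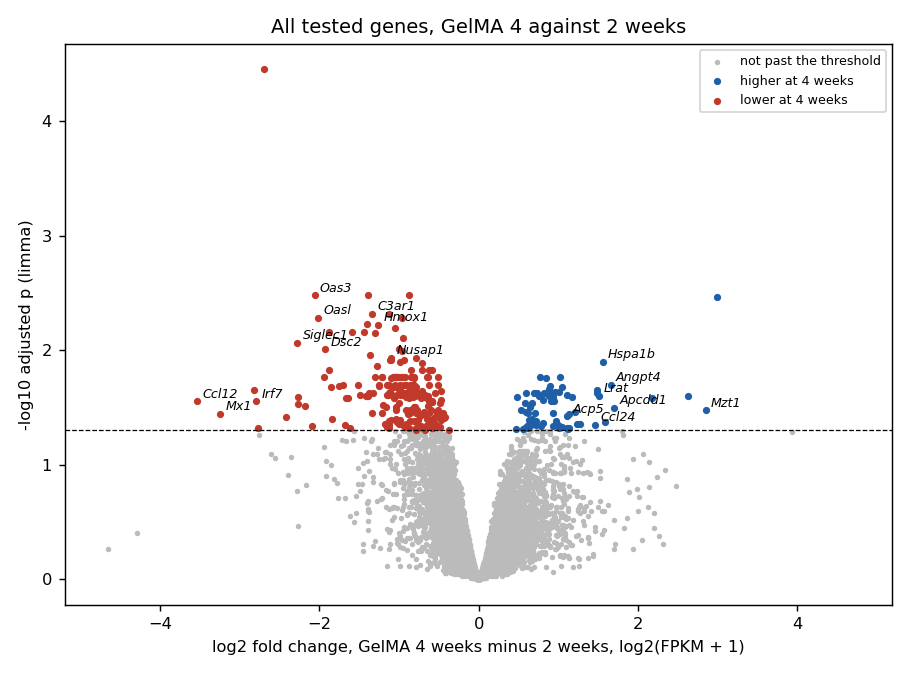
Each point is 1 of 11688 tested genes, with the log2 fold change (4 minus 2 weeks, on the log2(FPKM + 1) scale) on the x axis and -log10 of the limma adjusted p on the y axis; the dashed line marks an adjusted p of 0.05. The 223 genes that fell outnumber the 69 that rose, and the named genes that fell reach -3.54 (Ccl12) and those that rose and were not listed at 0 reach 1.70 (Apcdd1); Mzt1, drawn farther right, was listed at 0 at 2 weeks.

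The 6 libraries had count-like totals of 11174499 to 12959368 and 11323 to 11687 genes at 1 FPKM or more, and mitochondrial genes took 17.8% to 28.7% of the summed FPKM. Across genes, Pearson's r of log2(FPKM + 1) was 0.95 to 0.977 within 2W, 0.937 to 0.979 within 4W and 0.905 to 0.96 between the times. The first principal component (39.5% of the variance) set GelMA 2W replicate 3 (-38.8) and GelMA 4W replicate 2 (46.8) apart from the other 4 libraries, and the second (29.2%) ran from 4.38 to 25.6 at 2W and from -32.9 to 1.64 at 4W. The fat marker Adipoq was 2118 FPKM in GelMA 4W replicate 2 and 9.25 to 153.7 in the other 5. The endothelial marker Cdh5 was 27.4 FPKM in GelMA 2W replicate 3 and 53.5 to 128.2 in the others. The labelled muscle was hardly seen, since Acta1 of skeletal muscle was 0.123 to 0.662 FPKM, and the keratinocyte marker Krt5 was listed at 0 in all 6. Macrophage and fibroblast markers were high, with Cd68 at 394.3 to 971.2 FPKM and Dcn at 3041 to 4877 FPKM. In bulk tissue fewer cells of a type and less RNA per cell cannot be told apart.

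Of 28 tested members of the interferon-stimulated list 14 fell and none rose, against 1.91% and 0.59% of all tested genes. All 28 had a lower mean log2 value at 4 weeks, as had 52.5% of all tested genes. The median log2 fold change was -1.45, against -0.017 over all tested genes. For 18 of the 28 every 4-week value was below every 2-week value, against 14.3% of all tested genes. Among those that fell were Ddx58, Dhx58, Eif2ak2, Ifit3, Irf7, Isg15, Mx1, Oas1a, Oas2, Oasl, Stat2, Usp18 and XAF1. They include sensors of viral RNA, transcription factors of the response and its antiviral effectors.

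The promoters of Irf7, Ifit3, Oas1a and Oas3, which fell but is outside the list, are shown. These promoters were picked because each holds the letters of an interferon-stimulated response element, a site that IRF proteins bind. They run from 250 bases before to 50 after the gene start, are given 5′ to 3′ along the gene and are from RefSeq on the GRCr8 build. The windows are chr1:205799974-205800273 on the minus strand for Irf7, chr1:241527076-241527375 on the plus strand for Ifit3, chr12:41439482-41439781 on the plus strand for Oas3 and chr12:41330216-41330515 on the plus strand for Oas1a. Capitals mark GAAANNGAAA, or TTTCNNTTTC where it was found on the opposite strand. In Oas1a a pair of overlapping matches makes a longer run.
Irf7: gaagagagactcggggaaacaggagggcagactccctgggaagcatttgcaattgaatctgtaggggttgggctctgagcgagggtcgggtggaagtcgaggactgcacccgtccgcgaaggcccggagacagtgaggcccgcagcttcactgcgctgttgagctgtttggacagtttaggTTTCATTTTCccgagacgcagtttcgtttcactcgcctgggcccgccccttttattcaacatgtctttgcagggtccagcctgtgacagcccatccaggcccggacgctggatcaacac
Ifit3: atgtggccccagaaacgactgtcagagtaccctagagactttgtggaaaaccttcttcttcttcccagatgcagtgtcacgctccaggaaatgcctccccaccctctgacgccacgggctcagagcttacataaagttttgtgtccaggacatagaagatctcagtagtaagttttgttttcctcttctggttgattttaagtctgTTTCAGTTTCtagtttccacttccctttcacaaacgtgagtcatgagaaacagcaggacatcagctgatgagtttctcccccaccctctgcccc
Oas3: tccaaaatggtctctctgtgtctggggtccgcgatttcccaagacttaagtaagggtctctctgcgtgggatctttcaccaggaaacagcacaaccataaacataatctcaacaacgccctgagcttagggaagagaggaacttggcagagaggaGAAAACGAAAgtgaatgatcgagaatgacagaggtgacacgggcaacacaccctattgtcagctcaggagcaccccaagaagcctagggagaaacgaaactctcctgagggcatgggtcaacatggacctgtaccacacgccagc
Oas1a: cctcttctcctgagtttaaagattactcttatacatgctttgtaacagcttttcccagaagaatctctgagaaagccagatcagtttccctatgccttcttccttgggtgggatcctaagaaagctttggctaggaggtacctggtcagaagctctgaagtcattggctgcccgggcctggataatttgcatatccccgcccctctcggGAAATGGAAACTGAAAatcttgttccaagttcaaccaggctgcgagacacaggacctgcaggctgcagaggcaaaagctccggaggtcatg
Counted from the gene start, the first matched base lay at -69 in Irf7, -44 in Ifit3, -95 in Oas3 and -41 in Oas1a. Among all 33465 rat promoter windows given there, 1312 (3.92%) hold this motif on either strand. A share for the interferon-stimulated list is void, since only 19 of its 28 tested genes have a window in the table.

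Irf7, the transcription factor that amplifies interferon production, was 287.1, 371.2 and 184.1 FPKM in GelMA 2W replicates 1 to 3 and 26.3, 107.6 and 19.2 FPKM in GelMA 4W. Every 4-week library was below every 2-week library, and the middle 4-week replicate lay nearest to them. It fell by 2.79 on the log2 scale (SE 0.56, limma adjusted p = 0.0279). Its deposited locus, chr1:214215991-214252456 on rn6, is shared by 2 rows of the table, so the split of reads between them is uncertain. Mx1, a GTPase that blocks virus replication, was 194.1, 291.8 and 65.7 FPKM at 2 weeks and 7.80, 54.7 and 8.10 FPKM at 4 weeks (log2 fold change -3.25, SE 0.69, limma adjusted p = 0.0357). The groups did not overlap, and the lowest 2-week library was replicate 3 and the highest 4-week library replicate 2.

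The oligoadenylate synthetase family makes a messenger that activates RNase L. Oas3 (chr12:41316763-41336562, rn6), which is not on the list and was named by the size of its fold change, was 5.89, 5.30 and 4.46 FPKM at 2 weeks and 0.444, 0.584 and 0.430 FPKM at 4 weeks. These groups were far apart, and Oas3 fell by 2.06 on the log2 scale (SE 0.21, limma adjusted p = 0.0033). Its 4-week values were all below 1 FPKM, so Oas3 met the filter only through its 2-week libraries, which favours a fall. It was the only one of these 68 genes that also passed with just the 6 GelMA libraries (adjusted p = 0.0216). Oasl was 30.5, 30.9 and 16.4 FPKM at 2 weeks and 4.59, 7.30 and 4.65 FPKM at 4 weeks (log2 fold change -2.02, SE 0.24, limma adjusted p = 0.0052). Oas2 and Oas1a also fell, with log2 fold changes of -2.82 and -1.86. Oas2 lies next to Oas3, at chr12:41340814-41363161 on rn6.

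The ubiquitin-like modifier gene Isg15 was 47.7, 98.7 and 28.3 FPKM at 2 weeks and 4.19, 21.5 and 2.87 FPKM at 4 weeks. Its protease gene Usp18 was 98.1, 131.4 and 60.9 FPKM and then 28.4, 40.8 and 27.3 FPKM, and both fell, by 2.77 and 1.52 on the log2 scale. Ifit3, which binds foreign RNA together with related proteins, fell by 2.42, and Dhx58, which encodes a regulator of the RNA sensors, by 1.88. XAF1, an apoptosis-promoting gene, fell by 2.09. Stat2, a transcription factor of interferon signalling, fell by 1.12 on the log2 scale and was picked after its values had been seen. GelMA 4W replicate 2 was the highest of the 3 at 4 weeks for every interferon-stimulated gene named here with its values.

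Outside the list, Zbp1, a sensor of Z-form nucleic acids, fell by 2.19 (SE 0.45, limma adjusted p = 0.0306) and the Schlafen gene Slfn4 by 2.26 (SE 0.44, adjusted p = 0.0256). Lgals3bp, a secreted galectin-binding protein, was 288.7, 392.5 and 315.0 FPKM at 2 weeks and 72.6, 128.9 and 74.2 FPKM at 4 weeks, and fell by 1.88. Tlr7, the endosomal receptor for single-stranded RNA, was 56.6, 46.3 and 30.7 FPKM and then 13.8, 17.1 and 14.98 FPKM, and fell by 1.44. Cd274, which encodes the checkpoint ligand PD-L1, fell by 1.10. Lgals3bp, Tlr7 and Cd274 were picked after their values had been seen.

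The count of the interferon-stimulated list depended on the libraries. Of the 28 members 1 fell when GelMA 2W replicate 1 was left out, and 2 when it was GelMA 2W replicate 2. Leaving out GelMA 4W replicate 1 left 1 call, and leaving out GelMA 4W replicate 3 left 6. Without GelMA 2W replicate 3 or GelMA 4W replicate 2, the libraries that stand apart, the counts were 22 and 20, and without both of them 28. With only the 6 GelMA libraries none passed.

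**Figure D2:**
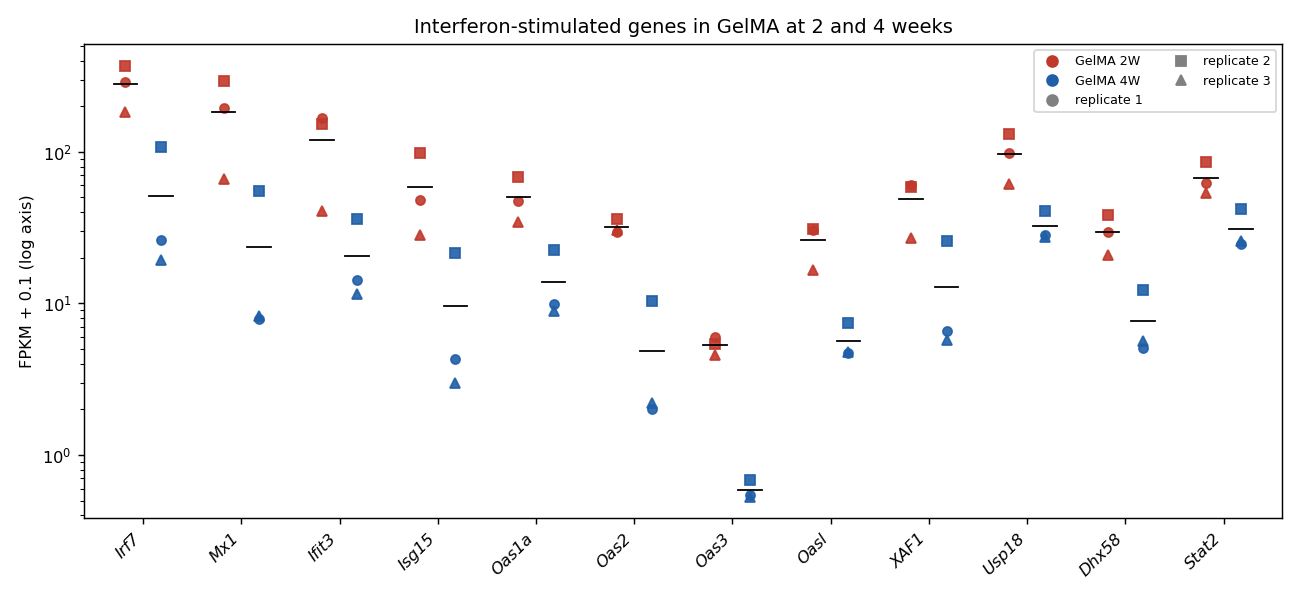
FPKM of 12 interferon-stimulated genes in the 3 GelMA 2W (red) and 3 GelMA 4W (blue) libraries, plotted as FPKM + 0.1 on a log axis; marker shapes are replicates and black bars are group means. In all 12 genes the 3 blue points lie below the 3 red points, and replicate 2 is the highest of the blue points.

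Of 23 tested chemokine ligand genes 1 rose and 1 fell, against 0.59% and 1.91% of all tested genes. Their median log2 fold change was -0.38. Ccl12, a ligand that draws monocytes, was 166.5, 28.9 and 14.8 FPKM at 2 weeks and 1.21, 5.91 and 2.32 FPKM at 4 weeks. It fell by 3.54 (SE 0.71, limma adjusted p = 0.0279), from libraries that were themselves widely spread. Ccl24, a ligand for eosinophils that alternatively activated macrophages make, was 16.4, 13.5 and 5.89 FPKM and then 38.7, 33.7 and 25.2 FPKM. It rose by 1.46 (SE 0.33, limma adjusted p = 0.0448) and lost the call in each of the 6 fits without 1 GelMA library. The interferon-induced Cxcl10 (log2 fold change -2.56, limma adjusted p = 0.0868, locus shared by 3 rows) and Ccl4 (-1.58, adjusted p = 0.0602) did not pass.

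Of 12 tested pro-inflammatory cytokine and inflammasome genes 2 fell and none rose, against 1.91% and 0.59% of all tested genes. Their median was -0.47. Nlrp3, the inflammasome sensor, was 6.86, 6.27 and 4.52 FPKM at 2 weeks and 2.10, 2.53 and 2.09 FPKM at 4 weeks (log2 fold change -1.07, SE 0.18, limma adjusted p = 0.017). Il18, a cytokine that inflammasomes activate, was 62.1, 34.0 and 30.5 FPKM and then 13.3, 13.2 and 20.2 FPKM, and fell by 1.34. The Il18 locus is shared by 3 rows. Il1b was 26.4, 23.2 and 7.30 FPKM and then 4.06, 12.3 and 3.40 FPKM. The groups overlapped, and its log2 fold change of -1.41 had a limma adjusted p of 0.215. The feedback inhibitor Tnfaip3 had a log2 fold change of -0.59 (adjusted p = 0.111).

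Pan-macrophage markers had a lower mean at 4 weeks in 17 of 18 tested members, against 52.5% of all tested genes. The median was -0.62, but only Adgre1 and Fcer1g fell, against 1.91% of all tested genes. The groups did not overlap in the lower direction for 9 of the 18, against 14.3% of all tested genes. Adgre1, the adhesion receptor F4/80, was 73.0, 78.6 and 89.6 FPKM at 2 weeks and 30.1, 42.6 and 38.2 FPKM at 4 weeks (log2 fold change -1.11, SE 0.17, limma adjusted p = 0.0122). Fcer1g, the signalling chain of Fc receptors, fell by 0.84. The marker genes Cd68 (-0.63, limma adjusted p = 0.152), Csf1r (-0.40, adjusted p = 0.186) and Ptprc, which all leukocytes carry (-0.68, adjusted p = 0.0844), did not pass. The summed FPKM of the 18 markers was 9820, 8675 and 10420 at 2 weeks and 7017, 5393 and 10470 at 4 weeks. By this sum GelMA 4W replicate 3 was as high as the 2-week libraries. The mean log2(FPKM + 1) of the 18 was 7.23, 7.21 and 7.31 and then 6.52, 6.57 and 6.97, so on that scale every 4-week library was lower. When GelMA 4W replicate 3 was left out 6 of the 18 fell, against 1 without GelMA 2W replicate 1 and 0 without GelMA 4W replicate 1.

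Some macrophage surface genes outside that list also fell. Siglec1, the sialic acid receptor of interferon-exposed and resident macrophages (chr3:123612066-123631109, rn6), was 69.4, 101.6 and 90.0 FPKM at 2 weeks and 10.8, 30.8 and 14.3 FPKM at 4 weeks. It fell by 2.28 (SE 0.31, limma adjusted p = 0.00865). Clec4a2, a C-type lectin receptor, was 56.8, 39.5 and 43.2 FPKM and then 12.04, 12.5 and 20.7 FPKM (log2 fold change -1.59, SE 0.21, adjusted p = 0.00694). Ms4a7, a membrane protein of macrophages, fell by 1.21. Clec4a2 and Ms4a7 were picked after their values had been seen.

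Of 15 tested alternative activation and resident-like macrophage genes Mrc1 fell and Ccl24 rose, with a median of -0.19. Mrc1, the mannose receptor, was 150.8, 158.0 and 206.4 FPKM at 2 weeks and 83.8, 90.0 and 95.5 FPKM at 4 weeks, and fell by 0.92 (SE 0.16, limma adjusted p = 0.0201). The haemoglobin receptor Cd163 had a log2 fold change of -0.95 with no overlap, but a limma adjusted p of 0.116. Lipid-associated macrophage genes had 0 of 15 past the test and a median of 0.22. Of 11 giant cell and osteoclast genes 1 rose, Acp5, which encodes the tartrate-resistant acid phosphatase. It was 25.5, 22.8 and 30.4 FPKM and then 41.1, 57.1 and 80.8 FPKM (log2 fold change 1.11, SE 0.24, limma adjusted p = 0.0378). Acp5 passed in 1 of 6 fits without 1 GelMA library. The proton pump subunit gene Atp6v0d2 was 1.30 higher with an adjusted p of 0.0916 and overlapping groups.

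A few complement, lysosome and haem genes fell. Of 22 tested complement genes 2 fell and none rose (median -0.15), against 1.91% and 0.59% of all tested genes. The groups did not overlap in the lower direction for 3 of the 22, a share near the 14.3% of all tested genes. C3ar1, the receptor for the C3a fragment (chr4:155684028-155690869, rn6), was 53.3, 37.1 and 43.1 FPKM at 2 weeks and 15.5, 14.9 and 20.7 FPKM at 4 weeks. It fell by 1.33 (SE 0.16, limma adjusted p = 0.0048). C3 itself was 52.8, 74.3 and 76.8 FPKM and then 13.5, 38.0 and 17.6 FPKM, and fell by 1.64 (SE 0.32, adjusted p = 0.0263). C3 passed in 1 of 6 fits without 1 GelMA library. Hmox1, which degrades haem, was 133.4, 92.8 and 127.5 FPKM and then 45.9, 43.9 and 54.6 FPKM. It fell by 1.26 (SE 0.16, limma adjusted p = 0.00599), the only call among 11 red blood cell and iron recycling genes. Of 25 lysosome genes 3 fell, the proteases Ctsz (-0.84) and Lgmn (-0.86) and progranulin, Grn (-0.64). Lgmn and Grn each passed in 1 of 6 fits without 1 GelMA library. The lysosome median was -0.37, and of all tested genes 1.91% fell. The groups did not overlap in the lower direction for 8 of the 25, against 14.3% of all tested genes. With median-of-ratios or upper-quartile scaling 1 lysosome gene fell, as when GelMA 2W replicate 2 or 3 or GelMA 4W replicate 2 was left out. Without GelMA 2W replicate 1 or GelMA 4W replicate 1 the count was 0, and without GelMA 4W replicate 3 it was 4.

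Of 19 tested T and cytotoxic cell genes 2 fell, against 1.91% of all tested genes (median -0.18). They were Cd8a and Cd8b, the chains of the CD8 co-receptor. Cd8a was 45.3, 29.7 and 65.7 FPKM at 2 weeks and 9.01, 19.7 and 13.1 FPKM at 4 weeks (log2 fold change -1.68, SE 0.38, limma adjusted p = 0.0445). Cd8b was 22.1, 20.9 and 34.6 FPKM and then 7.29, 10.4 and 10.04 FPKM (log2 fold change -1.37, SE 0.20, adjusted p = 0.0109). The call of Cd8b was lost without GelMA 4W replicate 1, and that of Cd8a was lost without any single GelMA library other than GelMA 4W replicate 2. Cd3e, a chain of the T cell receptor complex, was 7.59, 7.40 and 2.90 FPKM and then 5.52, 5.22 and 7.27 FPKM, with overlapping groups and a log2 fold change of 0.08 (SE 0.32, adjusted p = 0.913). In rats CD4 is also found on macrophages, and CD8 on some of them. Cd4 was 301.7, 400.1 and 547.8 FPKM at 2 weeks, far above Cd3e per length, and 232.1, 273.7 and 299.3 FPKM at 4 weeks (log2 fold change -0.60, adjusted p = 0.142). Of 20 dendritic cell and MHC class II genes 2 fell, against 1.91% of all tested genes, with a median of -0.27. They were the protease Ctss (-0.78, limma adjusted p = 0.0117) and the transcription factor Irf8 (-0.73, adjusted p = 0.0461). Of 4 tested B cell genes (median 0.48) and 12 mast cell genes (median 0.49) none passed. The mast cell median was 0.03 without GelMA 2W replicate 3. Of 5 neutrophil genes 1 rose, Il1r2.

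**Figure D3:**
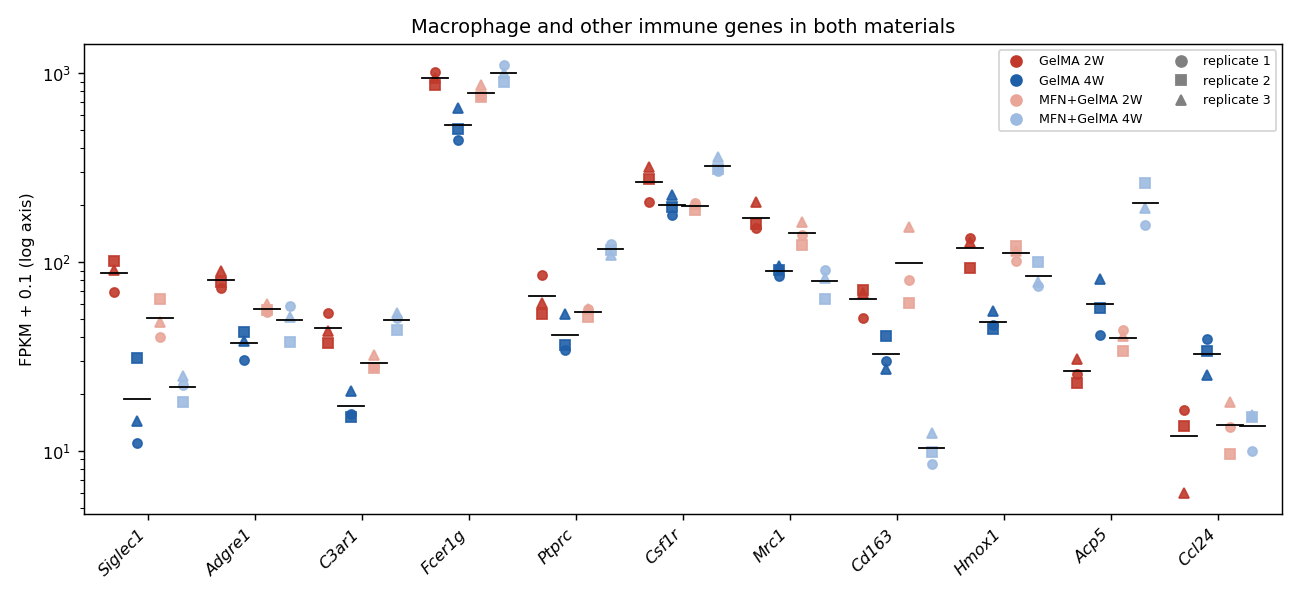
FPKM of 11 macrophage and other immune genes in all 12 libraries, plotted as FPKM + 0.1 on a log axis, with red and blue for GelMA 2W and 4W, pale red and pale blue for MFN+GelMA 2W and 4W, shapes for replicates and bars for group means. C3ar1 and Fcer1g are lower at 4 weeks in GelMA and not in MFN+GelMA, while Mrc1 is lower in both.

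Of 38 tested cell cycle genes 10 fell and none rose, against 1.91% and 0.59% of all tested genes. All 38 had a lower mean at 4 weeks, as had 52.5% of all tested genes, and the median was -0.75. For 34 of the 38 every 4-week value was below every 2-week value, against 14.3% of all tested genes. The 10 were Bub1b, Cdk1, Hmmr, Kif20a, Kif23, Mki67, Nusap1, Plk1, Top2a and Tpx2, which act mostly in mitosis. Many mitotic genes carry in their promoters a CHR element, which the MuvB complex binds, and CCAAT boxes, which NF-Y binds. Nusap1 and Hmmr are shown as examples, oriented as above, from chr3:127057045-127057344 on the plus strand for Nusap1 and chr10:25665166-25665465 on the minus strand for Hmmr (RefSeq, GRCr8). Capitals mark TTTGAA.
Nusap1: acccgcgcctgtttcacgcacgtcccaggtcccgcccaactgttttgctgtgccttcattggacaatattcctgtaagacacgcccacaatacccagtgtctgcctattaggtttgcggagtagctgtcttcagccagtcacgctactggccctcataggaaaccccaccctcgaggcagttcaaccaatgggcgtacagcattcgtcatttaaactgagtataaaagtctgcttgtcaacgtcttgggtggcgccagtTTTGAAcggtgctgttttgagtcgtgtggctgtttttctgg
Hmmr: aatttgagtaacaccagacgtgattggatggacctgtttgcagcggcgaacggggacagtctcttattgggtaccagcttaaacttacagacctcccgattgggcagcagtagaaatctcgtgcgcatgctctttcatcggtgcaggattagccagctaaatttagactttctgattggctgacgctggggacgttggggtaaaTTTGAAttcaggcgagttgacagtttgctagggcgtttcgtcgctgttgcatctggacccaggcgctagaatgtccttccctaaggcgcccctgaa
Of the 9 cell cycle genes that fell and have a window, 8 (88.9%) hold TTTGAA and 8 (88.9%) hold CCAAT, on either strand. Over all 33465 windows the shares were 18.3% and 37.5%, counted per window and not per gene. Shares for all 38 tested cell cycle genes, of which 30 have a window, and for all tested genes are void. Whether the cell cycle genes that fell hold these motifs more often than other cell cycle genes was therefore not tested. The 3 motifs searched do not contain one another.

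Nusap1, a spindle microtubule protein, was 7.42, 7.78 and 6.89 FPKM at 2 weeks and 2.38, 2.84 and 3.60 FPKM at 4 weeks. The groups were well apart, and it fell by 1.10 (SE 0.16, limma adjusted p = 0.0117). Hmmr, the hyaluronan receptor of the mitotic spindle, was 5.11, 4.71 and 5.39 FPKM and then 1.95, 1.55 and 2.36 FPKM, and fell by 1.05. Tpx2, which activates Aurora A, fell by 0.99 and the kinesin gene Kif20a by 0.81, where the locus of Kif20a is shared by 2 rows. Of the 38 genes 0 fell without GelMA 2W replicate 1 or GelMA 4W replicate 1, and 3 fell when GelMA 2W replicate 2 was left out. The counts were 7 without either GelMA 2W replicate 3 or GelMA 4W replicate 2, and 5 without both. With only the 6 GelMA libraries 0 fell, and without GelMA 4W replicate 3 the count stayed 10.

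**Figure D4:**
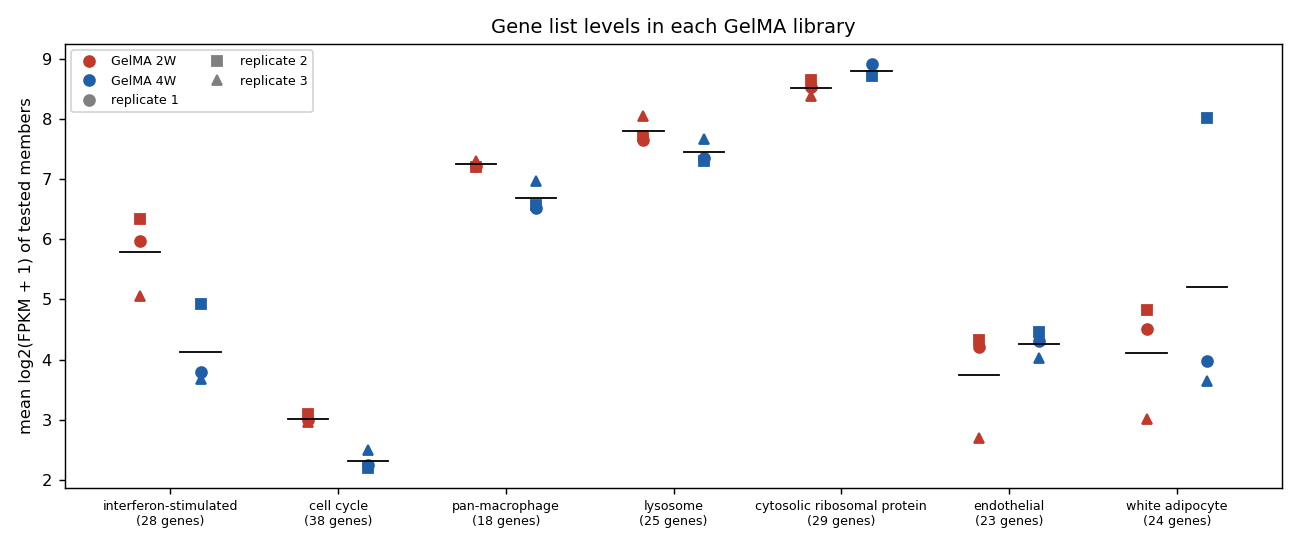
Mean log2(FPKM + 1) of the tested members of 7 gene lists in each GelMA library, red for 2 and blue for 4 weeks, with shapes for replicates and bars for group means. The 3 cell cycle values are 2.96 to 3.09 at 2 weeks and 2.2 to 2.49 at 4 weeks, while replicate 3 at 2 weeks is low for endothelial genes (2.69) and replicate 2 at 4 weeks is high for white adipocyte genes (8.02).

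Structural matrix genes did not pass the test. Of 18 tested collagen genes 0 rose or fell, the median was -0.17, and no member had groups that did not overlap in either direction. Col1a1 was listed at 0 in GelMA 4W replicate 1 and at 5596 to 8838 FPKM in the other 5 libraries, and Col3a1 was listed at 0 in GelMA 2W replicate 3 and GelMA 4W replicates 1 and 3. No fold is given for these genes, since such zeros can be failed estimates. Dcn, a proteoglycan of fibroblasts, was 3126, 3298 and 3407 FPKM and then 4877, 3041 and 3856 FPKM (log2 fold change 0.23, limma adjusted p = 0.526). No member passed among 18 elastic fibre (median -0.17), 7 small leucine-rich proteoglycan (0.23), 18 matricellular (-0.18), 22 metalloproteinase and inhibitor (0.28), 26 myofibroblast and TGF-beta response (0.08), 17 progenitor fibroblast (0.11), 6 cartilage and bone (-0.09) and 17 Hox and patterning genes (0.10). Tenascin, Tnc, was 42.5, 17.4 and 33.5 FPKM and then 7.66, 10.8 and 10.6 FPKM, without overlap, at an adjusted p of 0.147. Ltbp4 (1.33, limma adjusted p = 0.0625) and Timp3 (1.08, adjusted p = 0.108, locus shared by 2 rows) were higher in every 4-week library, and Fbn2 (-0.82, adjusted p = 0.0536, locus shared by 2 rows) was lower. Fbn2 met the filter only through its 2-week libraries, which favours a fall.

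A few matrix modifier and Wnt genes changed. P4ha1, a subunit of the collagen prolyl hydroxylase, was 137.6, 99.2 and 165.6 FPKM and then 65.7, 64.8 and 70.0 FPKM. It fell by 0.96 (SE 0.16, limma adjusted p = 0.017), the only call among 23 crosslinking genes (median -0.07) and among 23 glycolysis and hypoxia genes (median -0.23). Sfrp2, a secreted Wnt modulator (chr2:182723853-182731764, rn6), was 349.9, 296.3 and 401.2 FPKM and then 164.9, 165.2 and 168.4 FPKM. It fell by 1.06 (SE 0.13, limma adjusted p = 0.00641). Apcdd1, a membrane inhibitor of Wnt signalling, was 16.0, 16.4 and 8.87 FPKM and then 43.7, 76.3 and 28.0 FPKM, and rose by 1.70 (SE 0.35, adjusted p = 0.0316). Apcdd1 passed in 1 of 6 fits without 1 GelMA library. These were the calls among 18 Wnt, IGF and retinoid modulators (median 0.53). Igfbp5, a binding protein for insulin-like growth factors, was 1.05 higher at an adjusted p of 0.148.

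The medians of vessel and fat genes depended on single libraries. Of 23 endothelial genes 0 passed, with a median of 0.55 that was -0.04 without GelMA 2W replicate 3. The 16 pericyte and smooth muscle genes had 0 calls and a median of 0.46, or -0.06 without that library. Flt1, a VEGF receptor, was 8.78, 9.19 and 1.76 FPKM and then 13.4, 13.4 and 10.7 FPKM (log2 fold change 1.04, limma adjusted p = 0.195), and Nos3, endothelial nitric oxide synthase, was 0.94 higher (adjusted p = 0.0888, locus shared by 2 rows). Of 18 angiogenic ligands (median 0.07) and 3 lymphatic genes (median 0.25) none passed. The 24 white adipocyte genes had a median of 1.23, or -0.24 without GelMA 4W replicate 2. Their summed FPKM was 23950 in that library and 874.8 to 3667 in the other 5. Cidea, a lipid droplet protein, was 2.88, 2.51 and 1.13 FPKM and then 6.35, 12.7 and 6.85 FPKM, and was the only adipocyte gene that rose (1.59, SE 0.35, limma adjusted p = 0.0424), a call that was lost in all 6 fits without 1 GelMA library. The 6 skeletal muscle genes (median -0.06), 2 muscle regeneration genes (0.64) and 10 Schwann cell genes (0.20) had no call, nor had the 1 keratinocyte gene tested.

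Of 31 oxidative phosphorylation genes 2 rose, against 0.59% of all tested genes. They were the complex I genes Ndufb5 (0.48, locus shared by 2 rows) and Ndufs7 (0.62). At 4 weeks 12 of the 31 lay wholly above their 2-week values, against 10.3% of all tested genes (median 0.26). The median was 0.11 without GelMA 4W replicate 2, and 0.08 without both that library and GelMA 2W replicate 3. Without GelMA 4W replicate 3 the count of calls was 1, and without each of the other 5 GelMA libraries in turn it was 0. Of 29 cytosolic ribosomal protein genes 0 passed, although 17 lay wholly above (median 0.24, against 10.3% of all genes). The ribosomal genes Rps23 and Rpsa had log2 fold changes of 0.36 (limma adjusted p = 0.107) and 0.37 (adjusted p = 0.117). Of 13 heat shock genes 1 rose and 3 fell (median -0.06), against 0.59% and 1.91% of all tested genes. The endoplasmic reticulum chaperone Hspa5 was 520.8, 444.0 and 616.4 FPKM and then 247.7, 273.9 and 238.2 FPKM, and fell by 1.04 (SE 0.17, limma adjusted p = 0.017). The cytosolic chaperones Hsp90ab1 and Hspa8 fell by 0.52 and 0.47. Hspa8 is the sum of 2 rows, and the locus of the first is shared by 4 rows. The inducible Hspa1b rose by 1.56 (SE 0.23, adjusted p = 0.0127), from 6.37, 6.70 and 4.85 FPKM to 23.7, 16.4 and 18.7 FPKM, but its locus is shared by 18 rows of the table. Of 14 integrated stress response genes (median 0.10) and 20 immediate early genes (median -0.09) none passed.

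The remaining genes of the largest changes came from varied functions. Angpt4, a ligand of the Tie2 receptor on vessels, was 6.53, 5.65 and 8.26 FPKM and then 20.8, 41.7 and 14.6 FPKM, and rose by 1.66 (SE 0.29, limma adjusted p = 0.0201). Il1r2, the decoy receptor for interleukin-1, was 31.8, 41.2 and 24.4 FPKM and then 108.7, 65.3 and 68.0 FPKM, and rose by 1.28 (adjusted p = 0.0439). Lrat, which stores retinol as esters, rose by 1.51 from 1.68, 1.12 and 0.157 FPKM to 5.51, 4.45 and 3.26 FPKM. Plcb1 (1.22), a phospholipase, Rtn4r (1.14), the Nogo receptor, Syde2 (1.18), Cradd (1.13), Egfl8 (1.12) and Myo7b (1.24) also rose, all from low levels, and the loci of Egfl8 and Myo7b are shared by 14 and 3 rows. Rtn4r met the filter only through its 4-week libraries, which favours a rise. Mzt1, a component of the gamma-tubulin complex, was listed at 0 in every 2-week library and at 12.8, 3.46 and 5.12 FPKM at 4 weeks, so no fold is given. Mzt1 was also listed at 0 in every MFN+GelMA 2W library and in MFN+GelMA 4W replicate 3, and such zeros can be failed estimates. It met the filter only through its 4-week libraries, which favours a rise. Among genes that fell, Dsc2, a desmosomal cadherin, was 9.97, 4.30 and 8.16 FPKM and then 0.674, 1.48 and 1.32 FPKM (log2 fold change -1.93, SE 0.27, limma adjusted p = 0.00977). Dlk1, an inhibitor of adipocyte differentiation, and F10, coagulation factor X, also fell, with log2 fold changes of -1.94 and -2.27. Dlk1 met the filter only through its 2-week libraries, which favours a fall.

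**Figure D5:**
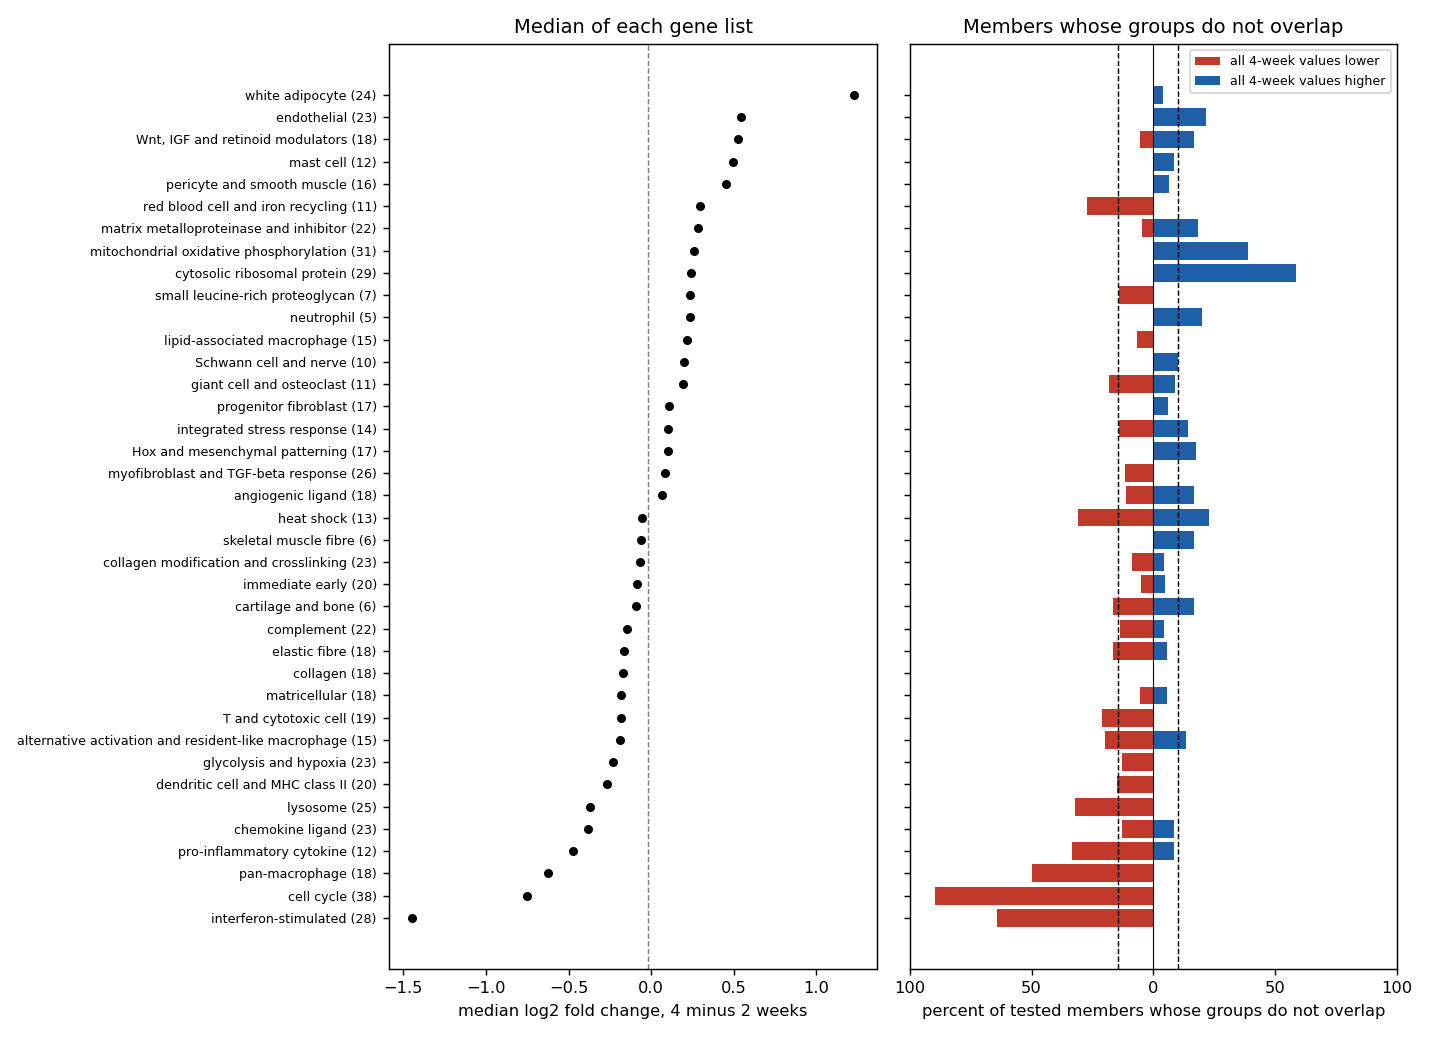
Left, the median log2 fold change (4 minus 2 weeks) of each list with at least 5 tested genes, with the number tested in brackets and the median of all tested genes as a dashed line. Right, the percent of members whose 3 values at 4 weeks all lay below (red, to the left) or above (blue, to the right) the 3 values at 2 weeks, with dashed lines at 14.3% and 10.3% for all tested genes; the interferon-stimulated and cell cycle lists lie at the foot of both panels.

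The same interval in MFN+GelMA was used to see where the change in plain GelMA differed, by the interaction term of the same fit. Of the tested genes 1650 (14.1%) had a change over time that differed between the materials. For single genes named by their change in GelMA, a difference opposite to it is favoured, since both use the same GelMA values. The interferon-stimulated list had a median of -1.45 in GelMA and -1.11 in MFN+GelMA, with 28 and 27 of its 28 means lower at 4 weeks, and 1 of its 28 genes, Oasl, differed. Oas3, outside the list, also differed, since it was 0.68 lower at 4 weeks in MFN+GelMA (difference 1.38, SE 0.30, limma adjusted p = 0.013). The pan-macrophage list had a median of -0.62 in GelMA and 0.63 in MFN+GelMA, and 12 of its 18 genes differed. C3ar1 was 27.8, 27.4 and 32.2 FPKM in MFN+GelMA at 2 weeks and 50.3, 43.7 and 53.3 FPKM at 4 weeks, so its mean was higher where that in GelMA was lower (difference 2.06, SE 0.22, adjusted p = 0.00193). Ptprc differed by 1.76 (SE 0.26, adjusted p = 0.00401) and Cd68 by 1.33 (SE 0.30, adjusted p = 0.0166). Cd163 differed the other way, by -2.10 (SE 0.42, adjusted p = 0.00927).

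The cell cycle list had a median of -0.75 in GelMA and -0.22 in MFN+GelMA, and 6 of its 38 genes differed, a share near the 14.1% of all tested genes. Of its means 38 were lower at 4 weeks in GelMA and 31 in MFN+GelMA, against 52.5% and 49% of all tested genes. Nusap1 differed by 0.96 (SE 0.23, limma adjusted p = 0.0182) and Kif20a by 1.11 (SE 0.19, adjusted p = 0.00631). Of 25 lysosome genes 12 differed, with a median of -0.37 in GelMA and 0.19 in MFN+GelMA, and of 23 glycolysis and hypoxia genes 11 differed (-0.23 and 0.51). The decrease of Sfrp2 was larger in MFN+GelMA (difference -1.45, SE 0.19, adjusted p = 0.00293), where it was 193.3, 208.6 and 262.6 FPKM at 2 weeks and 38.9, 34.5 and 40.2 FPKM at 4 weeks. Of the 223 genes that fell in GelMA 136 (61%) had a lower 4-week mean in MFN+GelMA, against 49% of all tested genes. Of the 69 that rose 33 (47.8%) had one. A difference was not found for Mrc1 (0.07, SE 0.23), Irf7 (0.21, SE 0.79) or Mx1 (0.74, SE 0.98), and the standard errors of Irf7 and Mx1 are wide.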

How the data were processed

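RNA sequencing libraries were prepared from total RNA (TRIzol, Ribo-Zero, stranded TruSeq), per the labels' protocols. Reads were processed with cutadapt 1.9.3, HISAT2 and Cuffdiff against rn6, per the submitters' processing notes. The sources used here give no other version, annotation or strand setting. The authors deposited 1 table of 22062 rows with 12 FPKM columns, the unit tested, per the file headers. The other 12 deposited columns are headed Counts but hold a count-like signal that is not whole, used only for totals, so a count model was not run and depth intervals are not given.

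Rows with the same symbol were summed (233 symbols on 498 rows). limma 3.58.1 in R 4.3.3 was fitted to log2(FPKM + 1) with a mean for each group, all 12 libraries together and a trend of variance on level (8 residual and 3.32 prior degrees of freedom), two-sided, with Benjamini-Hochberg adjustment over 11688 genes and a threshold of 0.05. The interaction is the change in MFN+GelMA minus that in GelMA. Error terms are the standard errors of this fit with n = 3 a group. Of 872 symbols on 42 gene lists 45 were not analysed here. Named genes were the 15 largest changes in each direction that passed and reached a mean of 2 FPKM at either time, plus, from each list, at most 4 genes of smallest p. Cell type markers and the genes said to be picked afterwards were added. A selected item is not reported here. The members and lists were chosen with earlier results of these data known.

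Alternatives were other filters, pseudocounts, scalings, variance models, thresholds, a replicate block and each library left out. Rows sharing a locus numbered 2559, where the division of reads is uncertain.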

Additional observations from a re-analysis of the deposited data

Results flagged for a closer look

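The change over time differed between plain GelMA and MFN+GelMA for 1650 tested genes by limma's interaction term at an adjusted p under 0.05. Values below are the change in MFN+GelMA minus the change in GelMA on the log2 scale, for the named genes that also changed in GelMA. Most of these genes were named by their change in GelMA, which is also subtracted here. Differences opposite to that change are therefore favoured by the selection. No group held more than 3 libraries, so single libraries were not tested as outliers.

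Genes that fell in GelMA and had a higher change in MFN+GelMA were Oas3 (1.38), Oasl (1.35), Adgre1 (0.89), Fcer1g (1.18), C3ar1 (2.06), Ctsz (1.06), Lgmn (0.95), Grn (0.69), Hmox1 (0.85), Ctss (1.15), Nusap1 (0.96), Tpx2 (0.74), Kif20a (1.11), P4ha1 (1.11), Hspa8 (0.64), Tlr7 (0.93), Clec4a2 (1.64) and Arntl (1.14). Genes that rose in GelMA and had a lower change in MFN+GelMA were Apcdd1 (-2.40), Angpt4 (-1.88), Hspa1b (-1.60), Lrat (-2.31), Il1r2 (-1.95), Myo7b (-1.95), Plcb1 (-1.51), Syde2 (-1.60), Rtn4r (-1.38), Cradd (-1.78) and Egfl8 (-1.11). Acp5 rose in GelMA and its change was larger in MFN+GelMA (1.21). Sfrp2 fell in GelMA and its decrease was larger in MFN+GelMA (-1.45). The part of fat, vessel or other cell content in these differences was not tested.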

How the results depend on the processing

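All 292 genes kept their direction in each fit that tested them (253 were tested in the filter at 5 FPKM). That is not separate support, since the genes were called in these same libraries. The number past the threshold depended on the libraries. In the fits below the first count is of genes higher and the second of genes lower at 4 weeks, against 69 and 223. With only the 6 GelMA libraries there were 1 and 3, and with array weights 240 and 602. Leaving out 1 of the 12 libraries gave 1 to 79 higher and 15 to 249 lower genes, lowest without GelMA 4W replicate 1, and 887 to 1551 genes whose change differed between materials, against 1650. Without MFN+GelMA 4W replicate 3 there were 33 and 143. At an adjusted p under 0.01 there were 1 and 19, under 0.1 184 and 477, and with at least a 2-fold change 28 and 92. Median-of-ratios scaling gave 86 and 190, and upper-quartile scaling 97 and 205. The counts under other pseudocounts and filters, no trend, robust variances, mitochondrial genes removed, rows kept apart and listed zeros as missing lay within 1.5 times of 69 and 223. Deviations from the group means correlated at -0.07, 0.33 and 0.38 for same-numbered GelMA libraries and at -0.36 to 0.143 for differently numbered ones. Whether the replicate numbers pair the samples was not tested. With the replicate block there were 62 and 231, and with the block and only 6 libraries 1 and 0, while 2191 genes had an unadjusted p under 0.05. Leaving out GelMA 2W replicate 3 and GelMA 4W replicate 2 together gave 63 and 309. Count-model alternatives were not run because the count-like columns are not whole numbers. The cause of these differences was not tested. Low genes near 1 FPKM are the least precise.

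A few marker genes without a call changed sign. Cd3e was -0.058 with array weights, -0.29 to 0.28 when 1 library was left out (-0.29 without GelMA 2W replicate 3, -0.04 without GelMA 4W replicate 3) and -0.21 without the 2 libraries that stand apart. Cdh5 was -0.52 with array weights, -0.67 to 0.43 when 1 library was left out (-0.67 without GelMA 2W replicate 3, -0.31 without GelMA 4W replicate 2) and -1.01 without both. Adipoq was -0.91 with array weights, -1.10 to 2.31 when 1 library was left out (-0.15 without GelMA 2W replicate 3, -1.10 without GelMA 4W replicate 2) and -2.29 without both.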

Other observations

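Core clock genes, picked after their values had been seen, were compared because the sources used here give no time of day for sampling. Arntl, which encodes the activator BMAL1, was 3.86, 4.52 and 3.29 FPKM in GelMA 2W replicates 1 to 3 and 1.26, 1.41 and 1.75 FPKM in GelMA 4W. It fell by 0.98 (SE 0.16, limma adjusted p = 0.017). The repressor gene Per1 rose by 0.68 (SE 0.15, adjusted p = 0.0395) and Nr1d1, which encodes REV-ERB alpha, by 0.61 (SE 0.14, adjusted p = 0.0461, locus shared by 2 rows). The clock output gene Dbp was 81.3, 99.0 and 94.0 FPKM and then 139.7, 131.5 and 122.0 FPKM, with a log2 fold change of 0.52 (adjusted p = 0.0944). In all 4 genes every 4-week value lay on 1 side of every 2-week value, but they were picked with these values known. Of all tested genes 10.3% lay wholly higher and 14.3% wholly lower at 4 weeks. Per1 and Nr1d1 lost the call in every fit without 1 GelMA library, and Arntl without GelMA 2W replicate 1 or 2 or GelMA 4W replicate 1. In MFN+GelMA Arntl was 3.60, 5.56 and 4.38 FPKM and then 5.32, 5.05 and 4.93 FPKM, and its change differed from that in GelMA (1.14, SE 0.23, adjusted p = 0.0103). For the other 3 genes the log2 change in MFN+GelMA was 0.42 (Per1), 0.54 (Nr1d1) and 0.48 (Dbp). Their differences from GelMA did not pass the limma interaction test (Per1 -0.26, SE 0.21, adjusted p = 0.44, Nr1d1 -0.07, SE 0.20, adjusted p = 0.86, and Dbp -0.04, SE 0.21, adjusted p = 0.918).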
